A study of Mus musculus with 4 samples.

Results

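The 7 genes of the homeostatic microglial signature followed here are *Tmem119*, *Cx3cr1*, *Slc2a5*, *Selplg*, *Olfml3*, *Sparc* and *Crybb1*, which are 7 of the 19737 genes in the deposited matrix. They were chosen by name, from a set described as surface and secreted genes, and all 7 passed the filter on low counts in the comparison of mice. Microglia are the resident macrophages of the brain, and in the healthy brain they hold a set of genes at a high level that is commonly called homeostatic. A loss of these genes together with a gain of disease-associated genes is the usual description of microglia around amyloid plaques, and TREM2, the receptor that antibody 4D9 binds, is a lipid-sensing receptor required for the full form of that state. *Tmem119* encodes a transmembrane protein used to tell microglia from other macrophages, *Cx3cr1* the receptor for the neuronal chemokine fractalkine, *Slc2a5* the fructose transporter GLUT5, and *Selplg* the selectin ligand PSGL-1. *Olfml3* encodes a secreted olfactomedin-domain glycoprotein and *Sparc* a secreted matricellular protein. *Crybb1* encodes a beta-crystallin best known as a structural protein of the lens, so that neither surface nor secreted describes it.

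The cells came from the brains of 20 mice in 5 groups of 4. All mice were homozygous for a knock-in of human transferrin receptor sequence (TfRmu/hu), on which the antibody transport vehicle (ATV) acts, and this includes the controls. WT;TfRmu/hu mice (WT below) received the ATV isotype control (ATV:ISO) or ATV:4D9. AppSAA;TfRmu/hu mice (AppSAA below), which were also homozygous for the amyloid-forming AppSAA knock-in, received ATV:ISO, 4D9 without the transport vehicle, or ATV:4D9. Each mouse had a single dose of 10 mg kg−1 and was sampled 24 hours later. The age given with the study for the AppSAA mice is 8 months, and it is unclear whether that entry also covers the WT mice. One WT mouse given ATV:ISO was recorded as female. The isotype arm carries the label ATV-DNP02, which was read as ATV:ISO without a deposited text that says so. Live CD11b+ cells were sorted and run as 4 pools, each with 1 mouse of every group. The series text gives cortex as the tissue and CD45 as a second marker of the sort, whereas the sample labels give cortical and hippocampal tissue and CD11b alone. The mouse was the replicate, and the pool was known for every mouse.

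The data were counts of unique molecular identifiers (UMIs), which stand for captured mRNA molecules, in 74758 cells. A mouse contributed 2193 to 6126 cells and 17150296 to 102446549 UMIs. Depth differed between groups, because the median UMIs per cell averaged 7570 ± 642 (SD, n = 4) in WT ATV:ISO mice and 15300 ± 1620 in WT ATV:4D9 mice. It was 9340 ± 673 in AppSAA ATV:ISO, 9740 ± 1420 in AppSAA 4D9 and 15500 ± 1330 in AppSAA ATV:4D9 mice. Microglial markers (6 genes) together held 19800 to 28500 CPM in every mouse, where CPM are a gene's UMIs per 1000000 UMIs of the mouse. Markers of border macrophages (6 genes) held at most 37.2 CPM, monocytes (5 genes) at most 13.7, neutrophils (5 genes) at most 23.7, and T and NK cells (5 genes) at most 0.793. Markers of astrocytes (5 genes) ran from 136 to 165 CPM in WT ATV:ISO mice and from 61.5 to 112 in all other mice. Markers of endothelial cells (5 genes) ran from 37.8 to 53.0 CPM in AppSAA ATV:ISO and 4D9 mice and from 9.57 to 26.4 in the other 3 groups. Neurons (5 genes) reached 2.19 CPM, pericytes (4) 0.819, oligodendrocytes (5) 119, and the B-cell list (4) 274. Those of oligodendrocytes ran from 108 to 119 CPM in WT ATV:ISO mice and from 79.4 to 103 in all other mice. Immediate early genes (15 genes) held 15300 to 17700 CPM in WT ATV:ISO and 10100 to 13000 in WT ATV:4D9 mice. They held 12500 to 17600 CPM in AppSAA ATV:ISO, 13600 to 15700 in AppSAA 4D9 and 10900 to 13000 in AppSAA ATV:4D9 mice. The part of these in the results was not tested. There were 543 barcode sequences that occurred in more than 1 pool, covering 1089 cells, which is why cells were identified by pool and barcode together.

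CPM below are scaled by the TMM factors of edgeR, so that the groups' means and the fold changes share a scale. Levels of different genes were not compared with each other. In WT ATV:ISO mice *Slc2a5* was at 315, 269, 306 and 295 CPM (pools 1 to 4), and in WT ATV:4D9 mice at 139, 135, 129 and 135 CPM. In AppSAA mice it was at 215, 184, 206 and 213 CPM under ATV:ISO, at 197, 190, 196 and 212 CPM under 4D9, and at 74.5, 113, 96.9 and 107 CPM under ATV:4D9. No mouse given ATV:4D9 overlapped with a mouse of the other 3 groups. The order of the group means was WT ATV:ISO (297 ± 20.2), AppSAA ATV:ISO (205 ± 14.0), AppSAA 4D9 (199 ± 9.33), WT ATV:4D9 (135 ± 4.10) and AppSAA ATV:4D9 (98.0 ± 17.0), and the AppSAA mice given ATV:ISO and 4D9 overlapped.

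*Crybb1* was at 485, 429, 355 and 345 CPM in WT ATV:ISO mice and at 176, 174, 140 and 157 CPM in WT ATV:4D9 mice. In AppSAA mice it was at 262, 168, 177 and 167 CPM under ATV:ISO, at 207, 214, 168 and 185 CPM under 4D9, and at 88.4, 121, 102 and 103 CPM under ATV:4D9. All WT ATV:ISO mice lay above, and all AppSAA ATV:4D9 mice below, every other mouse. The 3 groups between them overlapped.

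*Tmem119*, the gene most used to mark microglia, kept another order. It was at 1246, 1161, 1147 and 1327 CPM in WT ATV:ISO mice and at 1056, 1043, 986 and 1057 CPM in WT ATV:4D9 mice. In AppSAA mice it was at 903, 619, 751 and 806 CPM under ATV:ISO, at 801, 755, 712 and 782 CPM under 4D9, and at 877, 880, 809 and 860 CPM under ATV:4D9. Every WT mouse, treated or not, lay above every AppSAA mouse, and within AppSAA the ATV:4D9 mice overlapped with the ATV:ISO mice and lay just above the 4D9 mice.

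*Olfml3* was at 1483, 1292, 1078 and 1224 CPM in WT ATV:ISO mice and at 1782, 1583, 1345 and 1317 CPM in WT ATV:4D9 mice. In AppSAA mice it was at 1485, 1110, 1031 and 994 CPM under ATV:ISO, at 1491, 1230, 992 and 1098 CPM under 4D9, and at 1622, 1486, 1190 and 1227 CPM under ATV:4D9. All 5 groups overlapped on this scale, and in all 5 groups the mouse of pool 1 was the highest. Compared within pools, *Olfml3* was higher under ATV:4D9 than under ATV:ISO in 4 of 4 pools in WT and in 4 of 4 in AppSAA mice.

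*Cx3cr1* showed the pool in another way, with the highest mouse of each group in pool 4 in all 5 groups and the lowest in pool 1 in 4 of them. Its group means were 4396 ± 385 CPM (WT ATV:ISO), 2720 ± 339 (WT ATV:4D9), 3193 ± 300 (AppSAA ATV:ISO), 3144 ± 288 (AppSAA 4D9) and 2570 ± 286 (AppSAA ATV:4D9). The percentage of UMIs from mitochondrial genes also differed by pool, with medians per mouse of 1.01 to 1.32 in pools 1 and 2 and of 1.41 to 2.09 in pools 3 and 4. Whether the pool's effect on these genes and on the mitochondrial share have a shared source was not tested. *Selplg* averaged 2221 ± 158, 1408 ± 125, 1668 ± 218, 1645 ± 138 and 1307 ± 92.9 CPM in the same order of groups. *Sparc* averaged 2858 ± 317, 2210 ± 183, 2156 ± 108, 2188 ± 348 and 1866 ± 239 CPM. For both genes WT ATV:ISO mice were above the mice of the other 4 groups without overlap, and for *Sparc* those 4 groups overlapped among themselves.

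**Figure D1:**
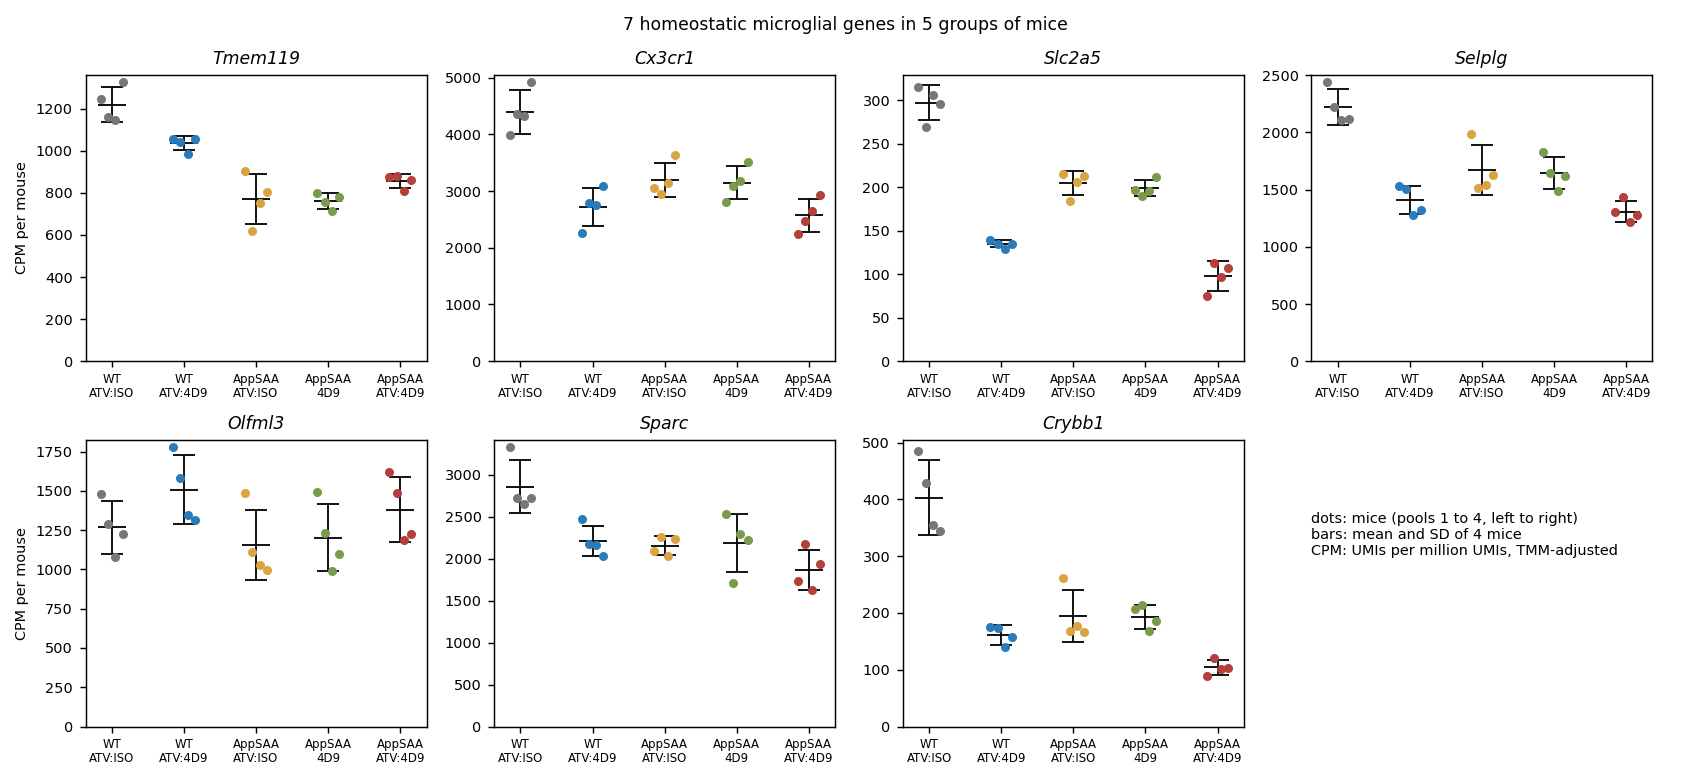
CPM (TMM-scaled, y axis from 0) of the 7 genes in each of 20 mice (dots, pools 1 to 4 from left to right) with the mean and SD of 4 mice per group. WT ATV:ISO mice were the highest group on average for every gene but *Olfml3*. AppSAA ATV:4D9 mice were the lowest for every gene but *Tmem119* and *Olfml3*, with *Slc2a5* and *Crybb1* at 98.0 and 104 CPM on average.

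The genes lie on 5 chromosomes of mm10 (GENCODE vM21 models). *Tmem119* (chromosome 5, 113793729 to 113800516, minus strand) and *Selplg* (chromosome 5, 113818536 to 113832644, minus strand) are neighbours, 18019 bases apart with 1 other gene model, *Gm19931*, between them. *Crybb1* lies on the same chromosome (112255815 to 112269585, plus strand). *Cx3cr1* (chromosome 9, 119901616 to 120069879, minus strand) has a long model that overlaps with other genes on both strands, *Gorasp1* and *Csrnp1* on its own strand among them. How reads from shared sequence were counted was not examined. *Slc2a5* (chromosome 4, 150119283 to 150144169, plus strand), *Olfml3* (chromosome 3, 103722222 to 103738001, minus strand) and *Sparc* (chromosome 11, 55394500 to 55423183, minus strand) overlap with no other model, and neither do *Tmem119*, *Selplg* and *Crybb1*.

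Promoter windows of 300 bases (250 before and 50 after the start site, RefSeq, GRCm38.p6) were matched for 5 of the 7 genes, *Cx3cr1*, *Slc2a5*, *Olfml3*, *Sparc* and *Crybb1*. The windows of *Olfml3* (chr3:103737952-103738251, minus strand) and *Crybb1* (chr5:112255570-112255869, plus strand) are shown because *Crybb1* was the most reduced of the 7 genes under ATV:4D9 in WT mice and *Olfml3* was not called. They are written 5′ to 3′ on the gene's strand, and capitals mark matches to the SMAD core CAGAC on either strand.
Olfml3: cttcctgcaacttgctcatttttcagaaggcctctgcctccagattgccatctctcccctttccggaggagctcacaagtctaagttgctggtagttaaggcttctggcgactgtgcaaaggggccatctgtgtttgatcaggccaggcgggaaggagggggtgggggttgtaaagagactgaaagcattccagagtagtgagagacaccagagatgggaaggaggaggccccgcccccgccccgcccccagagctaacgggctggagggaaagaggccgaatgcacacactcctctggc
Crybb1: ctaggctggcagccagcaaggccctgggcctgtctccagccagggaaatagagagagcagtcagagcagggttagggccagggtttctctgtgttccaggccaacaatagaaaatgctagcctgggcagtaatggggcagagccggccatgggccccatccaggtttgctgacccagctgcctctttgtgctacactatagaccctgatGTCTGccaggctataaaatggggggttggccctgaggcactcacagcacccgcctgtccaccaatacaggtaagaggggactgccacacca
The window of *Crybb1* holds 1 such match and that of *Olfml3* holds 0. Besides CAGAC, the ETS core GAGGAA, the AP-1 site TGANTCA and the MEF2 site TATTTATA were searched on both strands. These had no match in the 5 windows, and are present, in that order, in 28.3%, 7.81% and 1.70% of the 32851 windows in the genome. CAGAC was found in 4 of the 5, in all but *Olfml3*, against 49.6% of all windows. These are matches of letters only.

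The first comparison asks what TREM2 engagement by ATV:4D9 does to these genes where there is no amyloid. In WT mice, 6 of the 7 genes were lower under ATV:4D9 than under ATV:ISO, while 32.5% of the 14058 genes tested were called lower (edgeR, Benjamini-Hochberg adjusted over all genes). The fall was uneven. *Crybb1* fell by 1.32 on the log2 scale (SE 0.14, adjusted p = 1.33e-07) and *Slc2a5* fell by 1.14 (SE 0.1, adjusted p = 3.74e-09). *Cx3cr1* and *Selplg* fell by 0.69 (SE 0.11) and 0.66 (SE 0.09), *Sparc* fell by 0.37 (SE 0.11, adjusted p = 0.00723) and *Tmem119* fell by 0.24 (SE 0.09, adjusted p = 0.0252). *Olfml3* stood at 0.25 (SE 0.15, adjusted p = 0.155). The 7 changes thus spanned 1.57 log2 units around a median of -0.66, with a median of -0.05 over all genes. The call for *Tmem119* was lost under RLE scaling (-0.2), with cells thinned to 3000 UMIs (-0.19), without the filter (-0.17), with only cells of 1000 to 25000 UMIs (-0.14), and without WT ATV:ISO mouse 1 (-0.22) or 4 (-0.19), WT ATV:4D9 mouse 3 (-0.21) or AppSAA ATV:4D9 mouse 4 (-0.18). With the pool as a block, *Tmem119* kept its call (-0.23, adjusted p = 0.00348). *Olfml3* was then called higher (0.25, adjusted p = 0.000242), where the block called 74.6% of all genes either way.

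The second comparison is that of the amyloid-bearing with the plain genotype under ATV:ISO. Again 6 of 7 genes were lower in AppSAA mice, against 13.7% of all genes tested, but the falls were closer to each other, with a span of 0.92 around a median of -0.46. Fewer of all genes were called either way here (28.2%) than for ATV:4D9 in WT mice (63.3%), and the spans were not tested against that difference. *Tmem119* fell by 0.66 (SE 0.09, adjusted p = 9.31e-06), *Slc2a5* fell by 0.54 (SE 0.1), *Cx3cr1* fell by 0.46 (SE 0.11, adjusted p = 0.00234), *Selplg* and *Sparc* fell by 0.41 each (SE 0.09 and 0.11) and *Crybb1* fell by 1.06 (SE 0.14, adjusted p = 1.09e-05). *Olfml3* was at -0.14 (SE 0.15, adjusted p = 0.539), and with the pool as a block it was called lower too (adjusted p = 0.0234). That block raised the number of genes called either way from 3960 to 7166, which is 51.0% of all. With cells thinned to 3000 UMIs, *Cx3cr1* (-0.32) and *Selplg* (-0.27) lost the call.

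In AppSAA mice, 4D9 without the transport vehicle gave no call. All 7 values lay between -0.04 and 0.06 (SE 0.09 to 0.15), 0 of 7 genes were called against 0% of all genes (edgeR), and the 7 unadjusted p-values ran from 0.657 to 0.996. Over all genes 79 (0.562%) had an unadjusted p under 0.05 (edgeR), fewer than that threshold passes by chance, so these p-values ran high. The fit had no term for the pool, and the pool's part in this was not tested. With the pool as a block 0 genes were called. Likewise limma-voom called 0 and DESeq2 called 1, which was not among the 7.

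ATV:4D9 in AppSAA mice was compared with both other antibodies given to that genotype. Against ATV:ISO, 4 of 7 genes were lower and 0 higher, with 27.1% of all genes called lower and 27.9% higher. *Slc2a5* fell by 1.06 (SE 0.1, adjusted p = 1.77e-08) and *Crybb1* fell by 0.9 (SE 0.14, adjusted p = 2.48e-05), *Selplg* fell by 0.35 (SE 0.09, adjusted p = 0.00371) and *Cx3cr1* fell by 0.31 (SE 0.11, adjusted p = 0.0161). *Sparc* was at -0.21 (adjusted p = 0.125), *Tmem119* at 0.15 (adjusted p = 0.149) and *Olfml3* at 0.26 (adjusted p = 0.151). Against 4D9, 4 of 7 genes were lower and 0 higher, with 26.7% of all genes called lower and 27.6% higher, and the values were -1.02 for *Slc2a5*, -0.9 for *Crybb1*, -0.33 for *Selplg*, -0.29 for *Cx3cr1*, -0.23 for *Sparc*, 0.17 for *Tmem119* and 0.2 for *Olfml3*. The 2 comparisons share the ATV:4D9 mice. With the pool as a block, *Tmem119* was called higher in both (0.16, adjusted p = 0.0364, and 0.17, adjusted p = 0.0283), as was *Olfml3* (0.26 and 0.2), where the block called 70.7% and 69.9% of all genes either way. *Tmem119* took the other sign once cells were thinned to 3000 UMIs (-0.04 against ATV:ISO and -0.03 against 4D9, neither called).

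In the fit without the pool, some of these calls depended on single mice. Leaving out 1 mouse also left its pool without that group. With the pool as a block, *Cx3cr1* was called lower against ATV:ISO (-0.32, edgeR adjusted p = 1e-05) and against 4D9 (-0.29, adjusted p = 2.51e-05). *Sparc* was called in neither with the block (adjusted p = 0.0776 and 0.0584). The calls below are those without the block. AppSAA ATV:ISO mouse 1 was the highest of its group for every gene but *Cx3cr1* and *Sparc*. Without it, *Tmem119* (0.24) and *Olfml3* (0.4) were called higher under ATV:4D9 than under ATV:ISO. *Cx3cr1* lost the call against ATV:ISO without AppSAA ATV:ISO mouse 4 (-0.25) or AppSAA ATV:4D9 mouse 1 (-0.25). Against 4D9 it was lost without AppSAA 4D9 mouse 4 (-0.23), AppSAA ATV:4D9 mouse 1 (-0.23) or mouse 2 (-0.27), and with only those 2 groups in the fit (-0.28). *Sparc* was called lower without AppSAA ATV:4D9 mouse 2 (-0.29 against ATV:ISO, -0.31 against 4D9), without AppSAA 4D9 mouse 2 (-0.33 against 4D9), and when tested only among genes whose mean CPM reached 10 (-0.27 against 4D9).

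Between the 2 genotypes under ATV:4D9, 3 of 7 genes were lower in AppSAA mice, with 3.98% of all genes called lower. These were *Crybb1* (-0.64, SE 0.14, adjusted p = 0.00428), *Slc2a5* (-0.46, SE 0.1, adjusted p = 0.00273) and *Tmem119* (-0.27, SE 0.09, adjusted p = 0.0484). The last was close to the threshold, since it was lost when any of 18 of the 20 mice was left out (-0.3 to -0.25), without the filter (-0.28) and with the 2 groups alone (-0.27), and was kept with the pool as a block (adjusted p = 0.00361). The effect of ATV:4D9 was then compared between genotypes by an interaction term. None of the 7 genes was called (edgeR, unadjusted p under 0.05 for *Tmem119*, *Cx3cr1* and *Selplg*), against 9.14% of all genes, and the values ran from 0.01 (*Olfml3*) to 0.42 (*Crybb1*), with *Tmem119* at 0.39 (SE 0.13, adjusted p = 0.0563). DESeq2 called 1 of the 7, *Tmem119* (0.35). With the pool as a block 4 were called, *Cx3cr1* (0.38, adjusted p = 0.00039), *Tmem119* (0.39, adjusted p = 0.00365), *Selplg* (0.31, adjusted p = 0.00842) and *Crybb1* (0.43, adjusted p = 0.0442), all with a value under ATV:4D9 relative to ATV:ISO that was higher in AppSAA than in WT mice. That block raised the genes called from 1285 to 4284. Without AppSAA ATV:ISO mouse 1, *Tmem119* (0.47) and *Crybb1* (0.59) were called without a block.

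**Figure D2:**
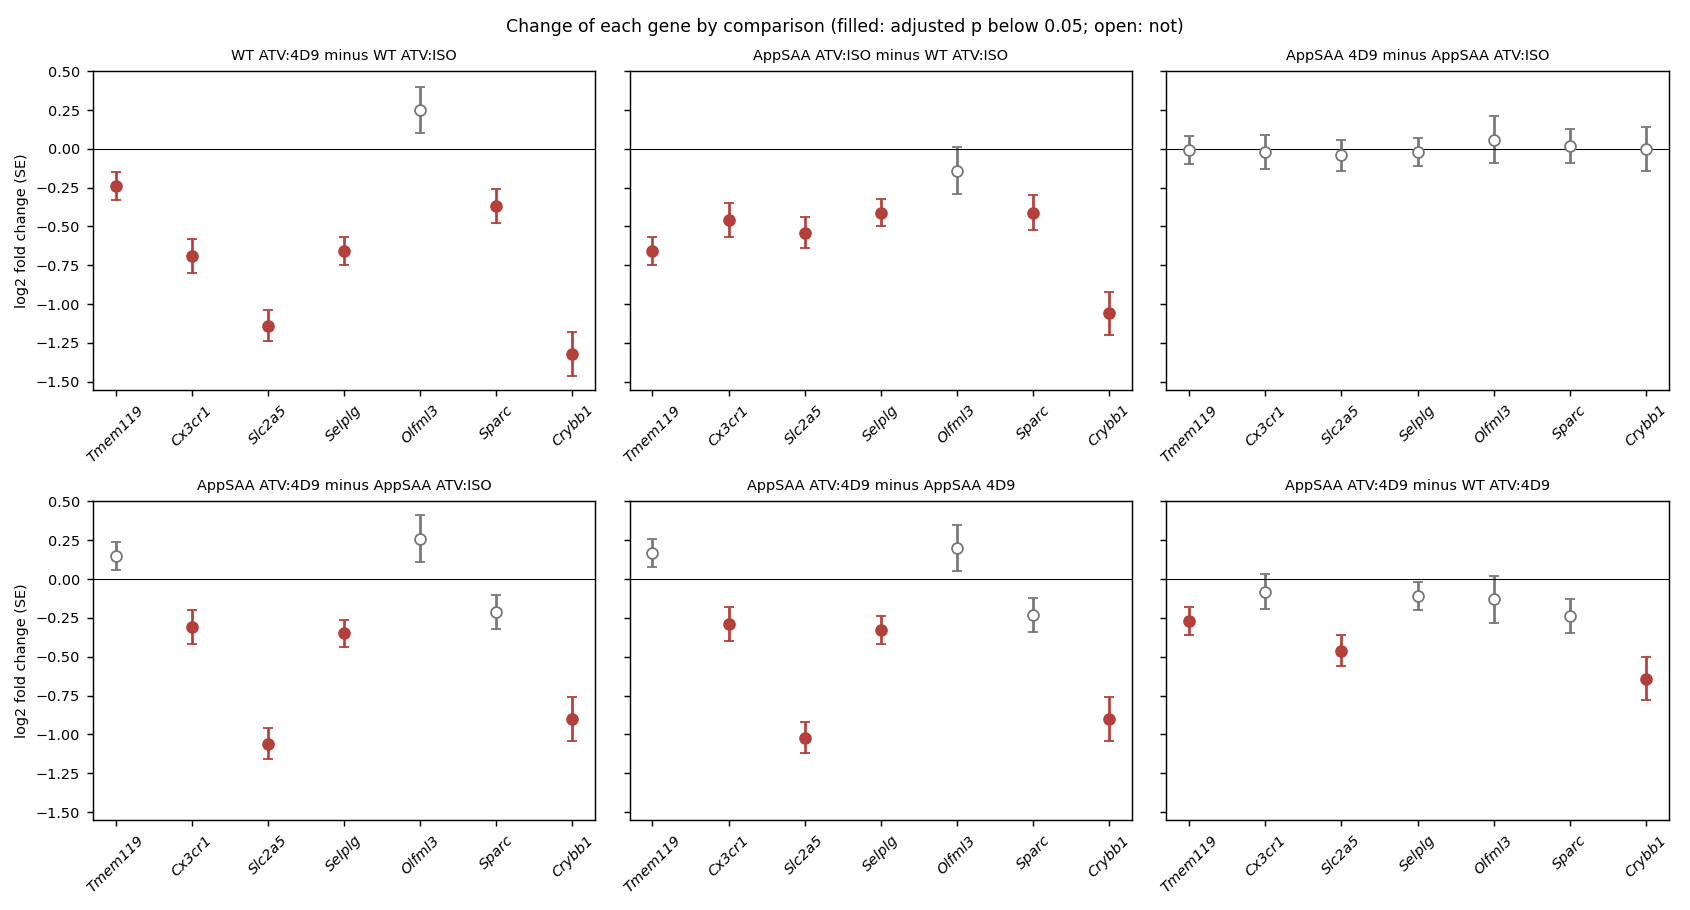
Log2 fold change (y axis, with SE) of the 7 genes (x axis) in 6 comparisons of 4 mice with 4, where filled points have an adjusted p below 0.05 over all genes. *Crybb1* and *Slc2a5* were lowest under ATV:4D9 in both genotypes, *Olfml3* stayed between -0.14 and 0.26, and for 4D9 against ATV:ISO all 7 values lay between -0.04 and 0.06.

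How evenly the genes moved was measured by the ratio of the UMIs of 2 genes within a mouse, which needs no scaling of libraries. The ratio of *Olfml3* to *Crybb1* was 3.06, 3.01, 3.04 and 3.55 in WT ATV:ISO mice and 10.2, 9.08, 9.63 and 8.41 in WT ATV:4D9 mice. In AppSAA mice it was 5.67, 6.59, 5.82 and 5.96 under ATV:ISO, 7.20, 5.75, 5.91 and 5.93 under 4D9, and 18.4, 12.3, 11.7 and 11.9 under ATV:4D9. Only AppSAA ATV:ISO and 4D9 mice overlapped in this ratio. The ratio of *Tmem119* to *Slc2a5* was 3.74 to 4.49 in WT ATV:ISO, 3.36 to 4.20 in AppSAA ATV:ISO and 3.64 to 4.08 in AppSAA 4D9 mice. It was 7.61 to 7.81 in WT ATV:4D9 and 7.77 to 11.8 in AppSAA ATV:4D9 mice, so that the genotypes overlapped and the presence of ATV:4D9 separated the mice.

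Over the 21 pairs of genes, groups did not overlap in 15 pairs for ATV:4D9 against ATV:ISO in WT mice, where 65.4% of all pairs of genes whose mean CPM reached 10 did not. They did not overlap in 6 pairs for AppSAA against WT under ATV:ISO (35.3% of all pairs), which became 2 (23.6% of all pairs) with thinned cells and 10 (40.9%) without AppSAA ATV:ISO mouse 1. They did not overlap in 0 pairs for 4D9 against ATV:ISO (0.353%), in 11 for ATV:4D9 against ATV:ISO in AppSAA mice (56.1%), in 13 for ATV:4D9 against 4D9 (56.2%) and in 7 between genotypes under ATV:4D9 (18.1%). The last of these was the furthest above its share over all pairs, and none was tested against that share. The exact permutation test (two-sided, 4 mice against 4) cannot go below p = 0.0286, which each pair without overlap reached. After Benjamini-Hochberg adjustment over 126 tests these had p = 0.0692, so that 0 of 126 ratios passed the threshold and 52 had an unadjusted p under 0.05 in the permutation test. With mice compared within their pool, the difference had 1 direction in all 4 pools in 20, 13, 1, 17, 14 and 14 of the 21 pairs, in the same order of comparisons, and in 85.6%, 72.1%, 10.7%, 82.4%, 82.0% and 55.1% of all pairs of genes. The exact permutation test within 4 pools cannot go below p = 0.125, and 0 of 126 had a p under 0.05. The largest difference was between *Olfml3* and *Crybb1* for ATV:4D9 in WT mice (1.56 on the log2 scale) and for AppSAA against WT under ATV:ISO (0.93), and between *Olfml3* and *Slc2a5* for ATV:4D9 against ATV:ISO in AppSAA mice (1.34). Between group means, the pair that kept its ratio best was *Cx3cr1* and *Selplg*, whose difference in the same 3 comparisons was -0.04, -0.04 and 0.03. From mouse to mouse that ratio varied, from 1.63 to 2.33 in WT ATV:ISO and from 1.48 to 2.33 in WT ATV:4D9 mice.

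Counted per cell, several of these genes did not fall. A cell of a WT ATV:4D9 mouse held 1.95 times the UMIs of a cell of a WT ATV:ISO mouse in all (16780 against 8612 on average). UMIs per cell of *Olfml3* were 2.13 times (25.6 under ATV:4D9), of *Tmem119* 1.52 times (17.8 against 11.7), of *Sparc* 1.39 times (37.8 against 27.2) and of *Selplg* 1.14 times (24.1 against 21.2) those of WT ATV:ISO mice, with no overlap between groups (exact permutation p = 0.0286, the smallest possible). *Cx3cr1* was at 1.11 times with overlap (p = 0.514, exact permutation). That test ignored the pool, and within pools 1 to 4 *Cx3cr1* was higher under ATV:4D9 each time. It was at 34.4 against 32.9, 44.0 against 39.4, 50.8 against 44.1 and 59.6 against 53.4 UMIs per cell. *Crybb1* was at 0.724 times without overlap (p = 0.0286, exact permutation) and *Slc2a5* at 0.813 times with overlap (p = 0.0857, exact permutation). Within pools 1 to 4 *Slc2a5* was lower under ATV:4D9 each time, at 2.11 against 2.60, 2.13 against 2.43, 2.39 against 3.13 and 2.62 against 3.21. Thus 4 of 7 genes were higher per cell without overlap, as were 73.6% of the 8026 genes that had UMIs in every mouse and whose mean CPM, without TMM, reached 10, and 1 of 7 was lower, as were 1.42%. A higher count per cell can come from more RNA or from more complete capture, which cannot be told apart here. With only cells of 1000 to 25000 UMIs, the groups overlapped for *Selplg* (0.08 on the log2 scale).

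In AppSAA ATV:ISO mice a cell held 1.34 times the UMIs of a WT ATV:ISO cell, and none of the 7 genes was higher per cell without overlap (31.8% of all such genes were). *Tmem119* (8.67 against 11.7 UMIs per cell) and *Crybb1* (2.15 against 3.81) were lower without overlap (exact permutation p = 0.0286 each), which is 2 of 7 against 1.43% of all such genes. *Cx3cr1*, *Slc2a5*, *Selplg* and *Sparc* overlapped between the groups, but within pools 1 to 4 each was lower in AppSAA mice every time. *Olfml3* had no single direction over the pools. ATV:4D9 in AppSAA mice, with 1.49 times the UMIs per cell of ATV:ISO, left *Tmem119* at 1.57 times and *Olfml3* at 1.70 times, both without overlap, and *Slc2a5* at 0.676 times without overlap (exact permutation p = 0.0286 each). That is 2 of 7 higher against 63.1% of all such genes and 1 of 7 lower against 1.67%. The other genes overlapped between these groups. Within pools 1 to 4, *Cx3cr1*, *Selplg* and *Sparc* were higher under ATV:4D9 each time. *Crybb1* was lower each time, at 1.35 against 2.56, 1.76 against 1.77, 1.65 against 2.21 and 1.81 against 2.07 UMIs per cell. Between the genotypes under ATV:4D9, total UMIs per cell were close (1.02 times). Of the 7 genes, 6 were lower per cell in AppSAA mice without overlap (6.99% of all such genes) and 0 were higher (4.27%). *Cx3cr1* overlapped between the groups, but within pools 1 to 4 it was lower in AppSAA mice each time. It was at 34.3 against 34.4, 36.0 against 44.0, 42.9 against 50.8 and 51.4 against 59.6 UMIs per cell. How many of all genes differed in 1 direction in every pool was not counted on this scale.

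**Figure D3:**
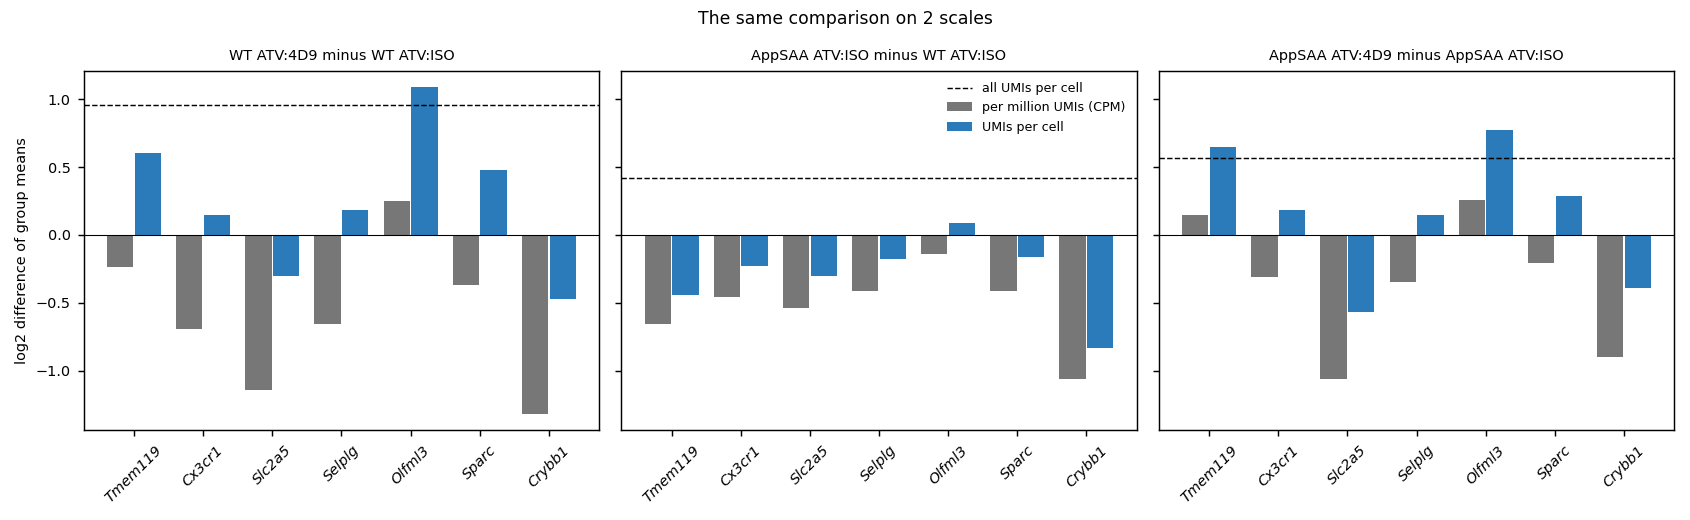
Log2 difference of group means (y axis) of the 7 genes in CPM (grey bars) and as UMIs per cell (blue bars) for 3 comparisons, with the difference in all UMIs per cell as a dashed line. In WT mice given ATV:4D9 only *Slc2a5* (-0.3) and *Crybb1* (-0.47) were below 0 per cell, and only *Olfml3* (1.09) exceeded the rise in total UMIs (0.96).

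The share of cells with at least 1 UMI followed the level for the 2 genes with the fewest UMIs. With every cell thinned to 3000 UMIs, which left out 133 to 230 cells per group, *Slc2a5* was seen in 60.8% ± 3.61 of WT ATV:ISO cells (SD, n = 4 mice), 34.2% ± 0.950 under ATV:4D9, 44.9% ± 2.33 in AppSAA ATV:ISO, 43.2% ± 2.35 in AppSAA 4D9 and 24.5% ± 4.94 in AppSAA ATV:4D9 mice. Without thinning these were 86.4%, 77.3%, 76.3%, 75.2% and 63.6%. *Crybb1* was seen in 65.0% ± 3.22, 36.1% ± 1.63, 38.7% ± 4.40, 39.1% ± 2.29 and 22.2% ± 3.08 of thinned cells in the same order, and in 86.6%, 76.2%, 63.6%, 63.6% and 58.5% without thinning. *Tmem119* was seen in 96.1%, 93.1%, 77.2%, 75.9% and 81.3% of thinned cells. The other 4 genes were seen in at least 92.4% of thinned cells in every group, where a share says little. The matrix holds no cell type that should lack these genes, so the share given by free RNA was not measured.

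The deposited annotation divides the cells into 6 clusters (resolution 0.2), which have no names and were built by the authors from the expression of these and other genes, so that differences between clusters are given as a description. Over mice, the median level of each of the 7 genes was highest in cluster 0, although for *Sparc* 3 of 20 mice were not lower in cluster 3. Cluster 3 was next, with median log2 ratios to cluster 0 of the same mouse from -0.4 (*Slc2a5*) to -0.08 (*Sparc*) over 20 mice. Cluster 3 was also the one highest in 15 immediate early genes (32304 CPM, against 5375 to 12196 in the other 5), and their part in these ratios was not tested.

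The genes parted most in cluster 1. There *Crybb1* was at a median log2 ratio of -2.91 (16 mice with at least 20 cells, -3.36 to -1.23), *Tmem119* at -2.11 (-2.82 to -0.97), *Slc2a5* at -1.66, *Selplg* at -1.41, *Cx3cr1* at -1.24, *Sparc* at -0.97 and *Olfml3* at -0.79. In cluster 2 (20 mice) *Slc2a5* (-1.46) and *Crybb1* (-1.34) were lowest and *Tmem119* (-0.69), *Cx3cr1* (-0.7), *Sparc* (-0.6) and *Olfml3* (-0.43) less so, with *Selplg* at -1.02. In cluster 4 (16 mice) *Crybb1* was at -1.82, *Slc2a5* at -1.71, *Cx3cr1* at -0.98, *Selplg* at -0.84, *Tmem119* at -0.72, *Sparc* at -0.57 and *Olfml3* at -0.32. In cluster 5 (17 mice) they ran from -1.43 (*Crybb1*) to -0.58 (*Sparc*). *Olfml3* had the ratio nearest to 0 in clusters 1, 2 and 4, and every mouse was below cluster 0 for it in all 5 clusters. At resolution 0.4 all 7 genes were nearer to 0 in the finer cluster that holds most of cluster 1 (67.1% of its cells, 17 mice), with *Crybb1* at -2.4, *Tmem119* at -1.69, *Slc2a5* at -1.36, *Selplg* at -1.06 and *Cx3cr1* at -0.95. Finer cluster 6 (12 mice) had lower values, with *Crybb1* at -4.17 and *Tmem119* at -3.41. The finer cluster that holds most of cluster 4 (66.5% of its cells) could be measured in 8 mice, with *Crybb1* at -1.24, *Cx3cr1* at -0.66 and *Tmem119* at -0.47. The median UMIs per cell also differed, from 7178 in cluster 0 and 8877 in cluster 3 to 14334 or more in clusters 1, 2, 4 and 5.

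**Figure D4:**
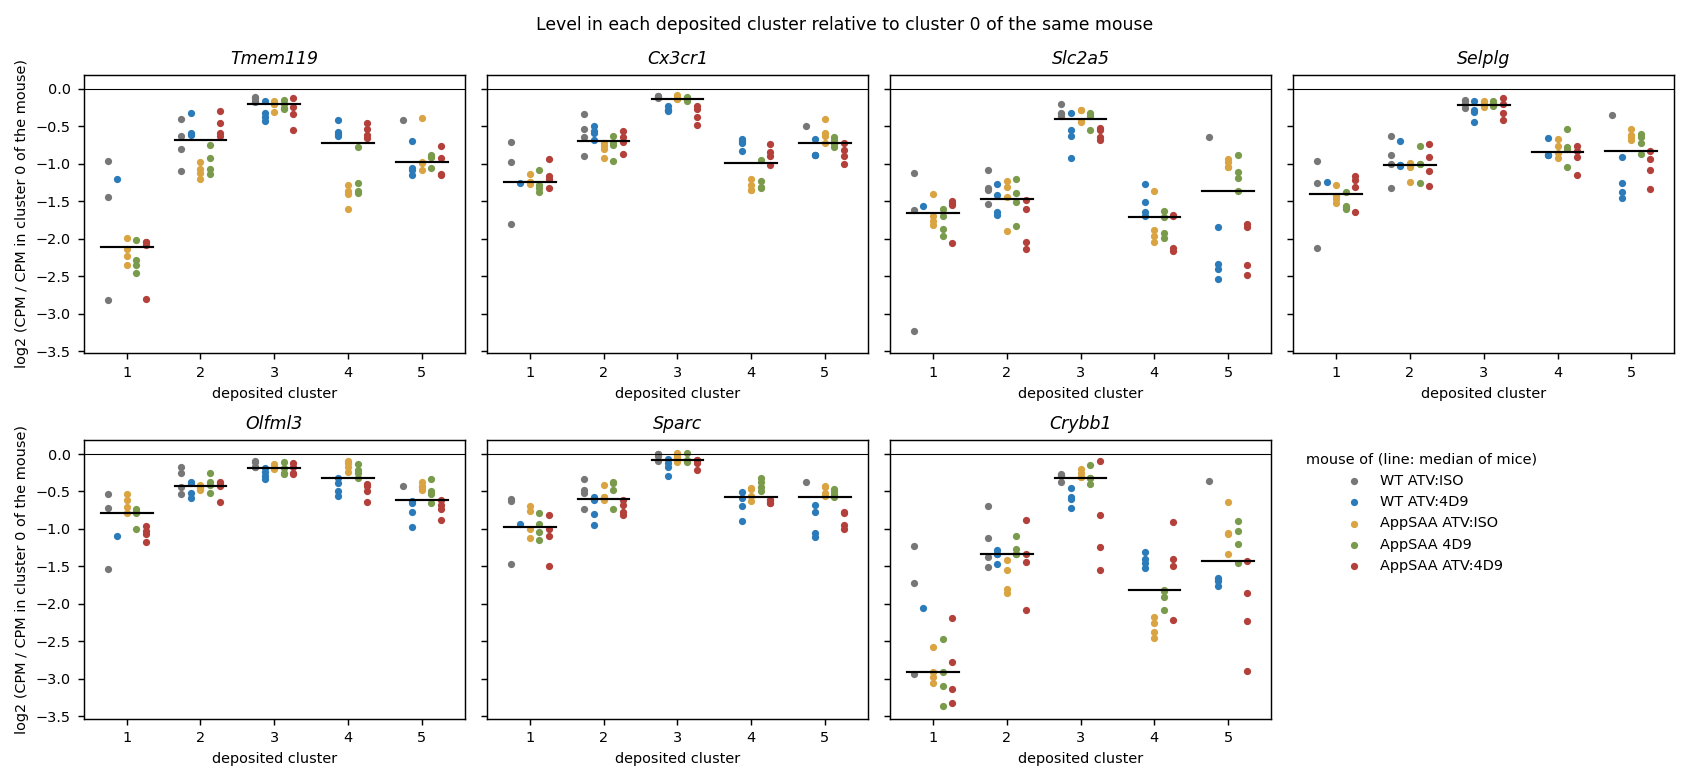
Log2 ratio (y axis) of a gene's CPM in clusters 1 to 5 (x axis) to its CPM in cluster 0 of the same mouse, for every mouse with at least 20 cells in the cluster (dots coloured by group; the line is the median). Every gene but *Slc2a5* had its lowest median in cluster 1, with *Crybb1* (-2.91) and *Tmem119* (-2.11) the furthest down. *Slc2a5* had medians from -1.71 to -1.37 in clusters 1, 2, 4 and 5.

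Groups were also compared inside a cluster, on sums over the cells of a mouse (at least 20 cells, at least 3 mice per group). Cluster 0 gave 0 calls of 7 genes in each of 4 comparisons (edgeR), namely ATV:4D9 against ATV:ISO in WT mice (1.47% of genes called), AppSAA against WT under ATV:ISO (0.274%), ATV:4D9 against ATV:ISO in AppSAA mice (0.667%) and AppSAA against WT under ATV:4D9 (0.154%). The values in these ran from -0.46 to 0.55. *Olfml3* was at 0.55 (SE 0.15, adjusted p = 0.0511) in the first. With the pool as a block, 3, 1, 2 and 2 of the 7 genes were called, against 8.96%, 4.61%, 5.27% and 1.86% of all genes, among them *Olfml3* higher under ATV:4D9 in WT (0.55) and in AppSAA mice (0.45) and *Crybb1* lower in all 4 (-0.21, -0.32, -0.38 and -0.48), and also *Cx3cr1* lower under ATV:4D9 in WT mice (-0.22) and *Tmem119* lower between genotypes under ATV:4D9 (-0.19). A mouse given ATV:4D9 had 37 to 195 cells in cluster 0, and a mouse of the other groups 843 to 1930.

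In cluster 3 the gene called was *Crybb1* alone. It was lower under ATV:4D9 in WT mice (-0.45, adjusted p = 0.0351, 1 of 7 against 6.17% of genes) and in AppSAA mice (-0.88, adjusted p = 0.000247, 1 of 7 against 4.33%). It was lower in AppSAA than in WT mice under ATV:4D9 (-0.72, adjusted p = 0.027, 1 of 7 against 0.163%), and none was called under ATV:ISO (0.189%). In plain CPM *Crybb1* stood there at 410 ± 51.2 (WT ATV:ISO), 280 ± 29.2 (WT ATV:4D9), 329 ± 44.9 (AppSAA ATV:ISO), 326 ± 17.5 (AppSAA 4D9) and 161 ± 35.3 (AppSAA ATV:4D9), with 4 mice each. The WT and the between-genotype calls were each lost when any of 5 of the 20 mice was left out (-0.53 to -0.36 and -0.82 to -0.64), and the AppSAA call in none. With the pool as a block those 2 calls were kept (edgeR adjusted p = 0.00033 and 0.000863, with 17.5% and 1.70% of all genes called). The WT call was also lost at resolution 0.4 (-0.39). With the pool as a block *Olfml3* was called higher (0.47 and 0.48) and *Cx3cr1* lower (-0.33 and -0.28) under ATV:4D9 in WT and in AppSAA mice, where the block called 17.5% and 12.6% of all genes, and *Slc2a5* was called lower in AppSAA mice (-0.28). Under ATV:ISO *Crybb1* was then called lower in AppSAA mice (-0.29, adjusted p = 0.0443, with 1.64% of all genes called).

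In cluster 1 *Crybb1* was lower in AppSAA than in WT mice under ATV:ISO (-1.28, SE 0.24, adjusted p = 0.00962, 1 of 7 against 1.21% of genes), where only 3 WT mice had enough cells, at 71.5 to 246 CPM. The call was lost without WT ATV:ISO mouse 1 (-0.83) or 4 (-1.32), and without mouse 2 *Tmem119* was called lower too (-0.91). ATV:4D9 against ATV:ISO in AppSAA mice gave 0 of 7 (1.51%), with *Tmem119* at 283 ± 53.5 against 315 ± 56.8 CPM.

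Clusters 2 and 4 held 47.8% and 40.0% of the cells of WT ATV:4D9 mice, and 6 to 172 cells of each mouse given ATV:ISO. In cluster 2, ATV:4D9 against ATV:ISO in AppSAA mice called 3 of 7 genes (13.2% of genes), *Tmem119* higher (0.55, SE 0.12, adjusted p = 0.00359), *Olfml3* higher (0.42, adjusted p = 0.0424) and *Slc2a5* lower (-0.49, adjusted p = 0.0202). *Tmem119* there was at 942 ± 79.1 CPM under ATV:4D9 and at 662 ± 87.3 under ATV:ISO. In WT mice 0 of 7 were called in cluster 2 (5.88%), and with the pool as a block *Olfml3* was called higher (0.39) and *Crybb1* lower (-0.48), against 11.0% of all genes. The block also added *Crybb1* to the genes lower between genotypes under ATV:4D9 (-0.47, with 7.38% of all genes called). *Crybb1* was lower in AppSAA than in WT mice under ATV:ISO (-0.79, adjusted p = 0.0374, 1 of 7 against 0.281%), and *Slc2a5* under ATV:4D9 (-0.49, adjusted p = 0.046, 1 of 7 against 2.07%), a call lost when any of 13 of the 20 mice was left out (-0.57 to -0.37 over the 20), with a minimum of 50 cells and at resolution 0.4. With the pool as a block both calls were kept (edgeR adjusted p = 0.0134 for *Crybb1* and 0.00112 for *Slc2a5*, with 1.33% and 7.38% of all genes called). Without the block, the *Crybb1* call was lost without any of 6 mice (-0.98 to -0.67 over the 20) and at resolution 0.4 (-0.59). At that resolution other calls were gained in cluster 2, namely *Olfml3* higher (0.46) and *Crybb1* lower (-0.59) under ATV:4D9 in WT mice, and *Crybb1* lower under ATV:4D9 in AppSAA mice (-0.5) and between genotypes (-0.5). In the ATV:4D9 comparison of AppSAA mice, *Slc2a5* was lost without any of 4 mice and *Olfml3* without any of 6, while *Tmem119* kept its call in all 20 cases. With the pool as a block all 3 kept their calls, where 24.8% of all genes were called.

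In cluster 4, ATV:4D9 against ATV:ISO in AppSAA mice called 2 of 7 genes, both higher (24.5% of genes called), *Tmem119* (0.73, SE 0.12, adjusted p = 0.000126) and *Crybb1* (0.42, adjusted p = 0.0304). *Tmem119* was at 892 ± 54.3 CPM under ATV:4D9 and at 535 ± 93.4 under ATV:ISO, whose mice had 27 to 74 cells there. The *Crybb1* call was lost without any of 6 of the 16 mice (0.33 to 0.52). The finer cluster with most of cluster 4 (66.5% of its cells) could be measured in only 8 mice. Neither rise could therefore be checked there at resolution 0.4. Its medians were 1045 CPM for *Tmem119* and 143 for *Crybb1*, against 783 and 98.2 in finer cluster 7, measured in 16 mice. The part of the mix of finer clusters in the rises was not tested. *Cx3cr1* (0.23) was called higher and *Selplg* (-0.24) lower as well with the pool as a block, with 30.1% of all genes called. AppSAA against WT under ATV:4D9 called *Slc2a5* (-0.57, adjusted p = 0.00505) and *Crybb1* (-0.47, adjusted p = 0.0226), 2 of 7 against 2.76% of genes. Both calls were lost at resolution 0.4 (-0.45 and -0.41), and that of *Crybb1* without WT ATV:4D9 mouse 2 (-0.43) or 4 (-0.49) or AppSAA ATV:4D9 mouse 1 (-0.38) or 4 (-0.47). With the pool as a block both were kept (edgeR adjusted p = 9.69e-05 and 0.000923, with 9.79% of all genes called). Of the comparisons of ATV:4D9 with ATV:ISO within a cluster, cluster 5 gave the largest falls. Under ATV:4D9 in AppSAA mice *Crybb1* fell by 1.35 (SE 0.18, adjusted p = 1.01e-05), *Slc2a5* fell by 1.18 (SE 0.13, adjusted p = 6.36e-07), *Selplg* fell by 0.45 and *Cx3cr1* fell by 0.35 relative to ATV:ISO, 4 of 7 against 29.7% of genes. The *Cx3cr1* call was lost without AppSAA ATV:ISO mouse 3 (-0.35) or 4 (-0.31) or AppSAA ATV:4D9 mouse 1 (-0.28) or 2 (-0.32). *Sparc* was called lower too with the pool as a block (-0.26, adjusted p = 0.0476, with 37.2% of all genes called). *Slc2a5* was at 74.6 ± 17.7 against 179 ± 14.3 CPM there. *Crybb1* alone was lower in AppSAA than in WT mice under ATV:4D9 (-0.78, adjusted p = 0.00644, 1 of 7 against 6.87%). For *Crybb1* the change under ATV:4D9 in AppSAA mice at resolution 0.2 thus was a rise in cluster 4 and a fall in clusters 3 and 5. The rise could not be checked in the finer cluster with most of cluster 4, and its value in finer cluster 7 is not given here. The difference between clusters was not tested.

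The change in group mean CPM was then split into a part that follows the shares of UMIs falling in each cluster and a part that follows the level within clusters, in plain CPM without TMM. Since the clusters were built from these genes among others, the split describes the data and tests nothing. Under ATV:4D9 in WT mice, *Slc2a5* changed by -58.2% relative to ATV:ISO, made up of -51.6% from the shares and -6.53% within clusters. *Crybb1* changed by -62.9%, with -43.0% from the shares and -19.9% within. *Tmem119* changed by -21.7%, with -27.1% from the shares and 5.46% within, and *Olfml3* by 9.69%, with -20.6% from the shares and 30.3% within. The shares lowered all 7 genes, and *Olfml3* ended above ATV:ISO through its level within clusters.

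Between the genotypes under ATV:ISO the shares held 65.2% (*Sparc*) to 99.5% (*Olfml3*) of the difference in CPM. For ATV:4D9 against ATV:ISO in AppSAA mice, the part from shares was close to 0 for *Tmem119* (-1.49% of the ATV:ISO level) and *Olfml3* (-0.317%), whose within-cluster parts were 7.35% and 14.2%. It was -34.0% for *Slc2a5*, with -20.0% within, and -23.9% for *Crybb1*, with -24.7% within. With the finer clusters of resolution 0.4 the first 2 of these parts were slightly above 0, at 7.36 CPM for *Tmem119* and 6.79 CPM for *Olfml3*.

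**Figure D5:**
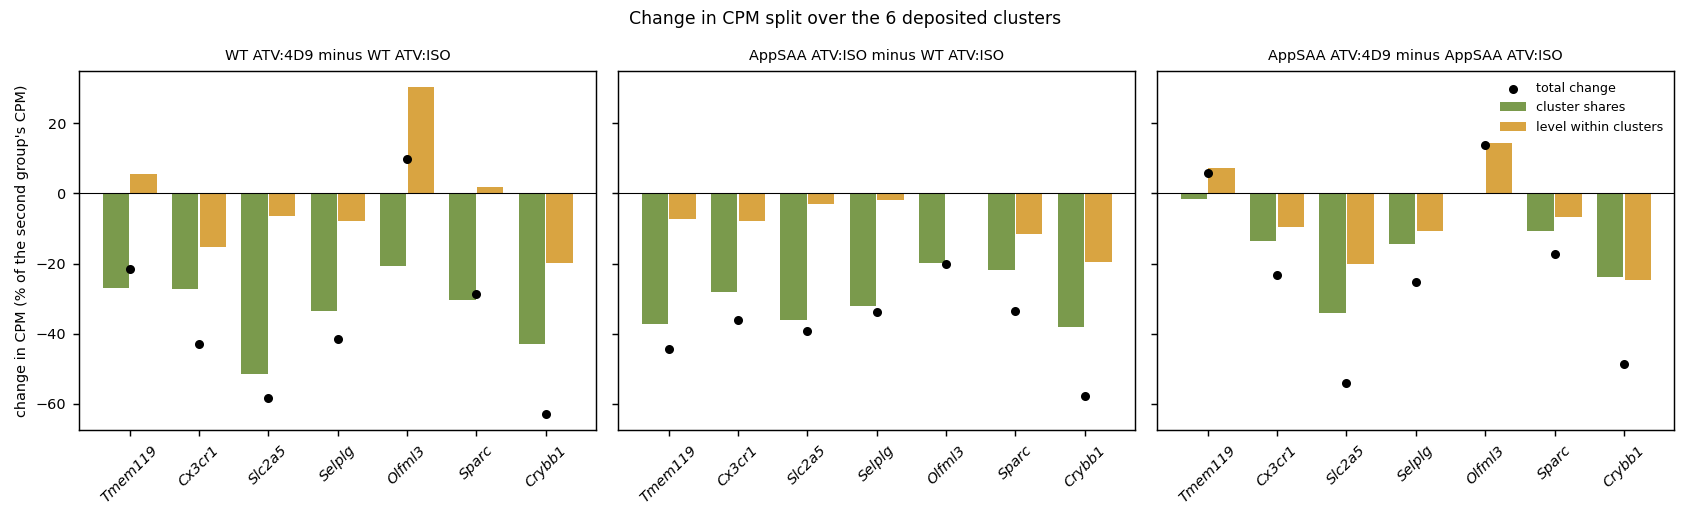
Change in CPM as a percentage of the second group's CPM (y axis) for the 7 genes in 3 comparisons, with the part from cluster shares (green bars), the part within clusters (orange bars) and their sum (black dots). In WT mice the shares took CPM away from every gene, while within clusters *Olfml3* was 30.3% and *Tmem119* 5.46% above.

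Other genes of the homeostatic signature give the setting. Of 24 listed, such as the purinergic receptor *P2ry12* and the transcription factor *Sall1*, 18 were lower and 0 higher under ATV:4D9 in WT mice (32.5% of all genes were lower), with a median log2 fold change of -0.64 beside -0.05 over all genes. The lowest were *Upk1b* (-1.59) and *P2ry12* (-1.38). Between genotypes under ATV:ISO 13 were lower and 1 higher (median -0.34, with 13.7% of all genes lower). *Ecscr* (-0.83) was lowest, followed by the adhesion G-protein-coupled receptor *Adgrg1*, *P2ry12* and *Upk1b* (-0.66 each), and *Lag3*, known as an inhibitory receptor of T cells, was higher (0.31). Under 4D9 in AppSAA mice 0 of 24 were called (edgeR). Under ATV:4D9 in AppSAA mice 15 were lower and 0 higher against either antibody (medians -0.44 and -0.43, with 27.1% and 26.7% of all genes lower), with *Upk1b* (-1.24) and *P2ry12* (-1.19) lowest against ATV:ISO. Between genotypes under ATV:4D9 5 were lower (3.98% of all genes were), led by *Ecscr* (-0.53) and *P2ry12* (-0.47), and *Lag3* was higher (0.67). In the interaction 2 of 24 were called (9.14% of all genes were), both higher, among them *Csf1r* (0.32), the receptor for CSF1 and IL-34. Of 20 disease-associated genes, 11 were higher and 5 lower under ATV:4D9 in WT mice (median 0.34, with 30.8% of all genes higher and 32.5% lower). All 20 were higher in AppSAA than in WT mice under ATV:ISO (median 2.42, with 14.4% of all genes higher). Under ATV:4D9 14 were lower and 1 higher than under ATV:ISO in AppSAA mice (median -0.71, with 27.1% of all genes lower), and 18 were higher in AppSAA than in WT mice (median 0.8, with 7.84% of all genes higher).

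Over the 20 mice, which share pools and groups, the genes whose log2 CPM was most like that of a member were sought over 8024 tested genes whose mean TMM-scaled CPM reached 10, as a description. *Slc2a5* was closest to *P2ry12* (Pearson r = 0.992), *Rtn4rl1* (0.991) and *Rhobtb1* (0.986). *Tmem119* was closest to *Casp8* (0.971), *Siglece* (0.949) and *BC035044* (0.947), *Cx3cr1* to *Ppp3ca* (0.985), *Akna* (0.982) and *Zswim6* (0.976), and *Selplg* to *Scamp2* (0.986), *Cebpd* and *Ifngr1* (0.979 each). *Olfml3* was closest to *Cnpy3* (0.963), *Ccdc22* (0.955) and *Nt5m* (0.952), *Crybb1* to *Kcnk12* (0.978), *Clec4a2* (0.974) and *Siah1a* (0.967), and *Sparc* to *Fopnl* (0.855), *Vps37b* (0.854) and *Zfp212* (0.849). None of the 7 had another of the 7 among its 3 closest genes. Among themselves the closest were *Selplg* and *Crybb1* (0.959), and *Olfml3* had its lowest value with *Cx3cr1* (-0.494).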

How the data were processed

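Cells were sorted from the brains of 20 mice and sequenced with a 3′ droplet assay in 4 pools. According to the submitters' processing notes and the methods, Cell Ranger 6.1.1 was used by the authors with the mm10 genome. Multiplexing tags tied each cell to its mouse, and integration and clustering were done in Seurat. The authors deposited raw UMI counts in the matrix, and the deposited annotation gives each cell's mouse, group, pool, cluster, UMI total and the percent of UMIs from mitochondrial genes, as computed by the authors. The counts of every cell summed to the deposited total.

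All 74758 cells were kept. Doublets were not called here, and which cells the authors removed is not given in the sources used here. There were 7233 cells (9.68%) outside 1000 to 25000 UMIs, which were left out as an alternative. The UMIs of a mouse, or of its cells in 1 cluster where there were at least 20, were added up. These sums went through filterByExpr, TMM scaling and the quasi-likelihood test of edgeR 4.0.16 (R 4.3.3; p-values adjusted by Benjamini-Hochberg over every gene in the fit, called at 0.05), with all 5 groups in 1 fit and no term for the pool. The procedure was tested on simulated data with known changes. Mice of the same pool deviated together from their group means (correlations of 0.264 to 0.829 in each of 40 pairs). The pool therefore pairs mice, and the fit with the pool as a block is given where it changes a call. Ratios and UMIs per cell were compared by two-sided exact permutation tests of 4 mice against 4. For UMIs per cell these tests ignored the pool. Alternatives were RLE scaling, other filters, DESeq2 1.42.0, limma-voom, 2-group fits, thinned cells, finer clusters and each mouse left out.

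The 7 genes are named throughout. From the list of other homeostatic genes, those named are the called genes with the largest rises and falls, at most 2 of each, and *Sall1* as an example of the list. Some results that this rule covers are not reported here. *P2ry12* and the other genes most like a member in pattern are the 3 with the highest correlation. The members and lists were chosen with earlier results of these data known. A p-value measures the spread between these mice only.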

Additional observations from a re-analysis of the deposited data

Results flagged for a closer look

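In 70 groups of 4 mice (7 genes, 5 groups, in CPM and in UMIs per cell) the highest and lowest mice were compared with their group, a check that flags about 1 in 20 groups by chance, and 2 mice stood apart. *Sparc* was at 3330 CPM in mouse 1 of the WT ATV:ISO group, against 2724, 2655 and 2720 CPM in the others, a gap of 0.897 of the group's range. *Crybb1* was at 262 CPM in mouse 1 of the AppSAA ATV:ISO group, against 168, 177 and 167 CPM, a gap of 0.89. Both mice were in pool 1.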

How the results depend on the processing

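The count of the 7 genes called lower between groups stayed within 1.5 times its value under every alternative run, in all 6 comparisons of groups. For counts this small, that range still lets single calls be lost. Examples are *Cx3cr1* and *Selplg* between genotypes under ATV:ISO with thinned cells, and *Tmem119* between genotypes under ATV:4D9. No value past the threshold changed sign under these alternatives. *Tmem119* under ATV:4D9 in AppSAA mice, which was not called, took the other sign with thinned cells (-0.04 against ATV:ISO, -0.03 against 4D9), and resolution 0.4 turned the part from shares of *Tmem119* (7.36 CPM) and *Olfml3* (6.79 CPM) positive in the comparison with ATV:ISO. The cause of the changes below was not tested. In the interaction, the genes called among the 7 went from 0 (9.14% of all genes called) to 1 when genes had to reach a mean CPM of 10 (13.2%) and with DESeq2 (11.5%), to 4 with the pool as a block (30.5%), and to 0 to 2 with 1 mouse left out, where the 2 came without AppSAA ATV:ISO mouse 1 (8.42%). Of the 24 other homeostatic genes, those higher in the interaction went from 2 to 0 with RLE scaling (9.03% of all genes called either way) and to 13 with the block (30.5%), and those lower between genotypes under ATV:4D9 from 5 (11.8%) to 9 with the block (31.4%). Ratios without overlap between genotypes under ATV:ISO went from 6 (35.3% of all pairs) to 2 with thinned cells (23.6%) and ranged from 6 to 10 with 1 mouse left out (10 without AppSAA ATV:ISO mouse 1, 40.9%).

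Within clusters, the comparisons below are ATV:4D9 against ATV:ISO in WT mice, AppSAA against WT under ATV:ISO, ATV:4D9 against ATV:ISO in AppSAA mice, and AppSAA against WT under ATV:4D9, in that order, and are given the letters A, B, C and D. With the pool as a block, calls in cluster 0 went from 0 in each to 3, 1, 2 and 2 (8.96%, 4.61%, 5.27% and 1.86% of all genes called). In cluster 2 the block gave 2 in A (11.0%) and 2 in D (7.38%), in cluster 3 it gave 3 in A (17.5%), 1 in B (1.64%) and 4 in C (12.6%), and in cluster 4 it gave 4 in C (30.1%). RLE scaling gave 1 in A of cluster 0 (1.57%) and 2 in C of cluster 3 (4.57%). Resolution 0.4 gave 2 in A (10.8%) and 0 in B (0.0212%) of cluster 2, 0 in A of cluster 3 (1.48%) and 0 in D of cluster 4 (1.49%), and a minimum of 50 cells gave 0 in D of cluster 2 (2.35%). With 1 mouse left out, calls ranged from 0 to 1 in A of cluster 0 (0.608% to 1.69% of all genes) and from 0 to 2 in B of cluster 1 (0.547% to 1.33%). In cluster 2 they ranged from 0 to 1 in A (3.47% to 6.88%), 0 to 1 in B (0.0611% to 0.372%), 1 to 3 in C (6.49% to 13.7%) and 0 to 2 in D (1.39% to 2.42%). In cluster 3 they ranged from 0 to 2 in A (3.98% to 6.83%), 1 to 2 in C (2.64% to 4.46%) and 0 to 1 in D (0.00849% to 0.264%), and in cluster 4 from 1 to 2 in C (16.2% to 27.0%) and in D (1.74% to 3.27%). Few cells per mouse limit the clusters that are rare in a group.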
